A study of Ulva lactuca with 7 samples.

Results

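Thalli of the green seaweed Ulva lactuca that had been dried for 72 h were set against thalli that stayed submerged throughout, with 64704 of the 137594 assembled transcripts compared. These are the transcripts with a mean of at least 10 reads over the 7 libraries of the series, less 1342 that were found almost only in the 72 h library. A transcript was left out on that account where it had at least 50 counts after 72 h and at least 20 times the CPM of every other library (its count scaled to the library total), since such RNA may come from another organism. The 64704 transcripts belong to 21534 assembled genes, meaning the transcripts that share an identifier up to the isoform number. The dried thalli were laboratory-acclimatised blades kept dry at 20% moisture for 72 h and sampled dry. The control thalli were always submerged. The title of the control library carries the number of the 24 h period, and the labels do not say whether its thalli were sampled with that period or with the thalli of 72 h. Further libraries came from thalli dried for 24 or 36 h and from thalli returned to autoclaved seawater for 1 h after each of the 3 drying periods. Each condition is 1 library of whole thalli, so nothing shows the spread between thalli and no test of the difference was possible.

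Ulva lactuca, the sea lettuce, is a thin sheet of cells on rocky shores that is exposed to air at low tide. Loss of water concentrates the cell contents and leaves chlorophyll absorbing light while carbon fixation slows, which is known to favour reactive oxygen species. Desiccation-tolerant plants and algae are known for protective hydrophilic proteins, chaperones and antioxidant enzymes, and dry tissue can also store or lose messenger RNA without new transcription. Transcripts carry only assembly identifiers in the files, with their length and base composition and no name or product, so none of these groups could be counted and the label of the dried thalli could not be checked against marker genes. In RNA from whole thalli, fewer cells of a type and less RNA per cell cannot be told apart.

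Both libraries were read to nearly the same depth, with a total count of 63782317 after 72 h of drying and 64315136 in the control. The other 5 libraries had 78585833 to 97270080 counts, and the labels name no batch. These totals are 2.56 to 2.91 times the number of reads that the deposited FPKM values imply. Whether reads were counted on several isoforms was not tested. Values with 1 transcript per assembled gene are therefore given beside the others. The 10 most abundant transcripts took 8.69% of the counts after 72 h and 8.99% in the control, and the 100 most abundant 15.5% and 18.6%. Of the transcripts compared, 64184 had at least 1 count after 72 h and 63309 in the control.

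After 72 h of drying, 8010 transcripts were at least 4-fold higher than in the control and 3988 were at least 4-fold lower. They came from 3841 and 2065 assembled genes. These are 12.4% and 6.16% of the transcripts compared. With 1 transcript per assembled gene, the one with the highest mean count, 3389 of 21534 were at least 4-fold higher and 1744 at least 4-fold lower, or 15.7% and 8.1%. The median log2 ratio of the 72 h library to the control was -0.024, the quartiles were -0.82 and 0.97, and for 54.9% the ratio was under 2-fold in either direction. Without the filter on the mean count 20972 transcripts were at least 4-fold higher and 5641 at least 4-fold lower, and at a mean count of at least 50 the numbers were 5187 and 2753.

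The excess on the higher side grew with the size of the ratio. At 2-fold or more, 15813 transcripts were higher and 13396 lower, at 8-fold or more 4293 and 1252, at 16-fold or more 2146 and 536, and at 64-fold or more 503 and 110. The ratios use log2 CPM with a prior count of 2, which draws the ratios of low counts towards 0. Asking that the 95% counting interval of a ratio lie wholly past 4-fold left 5362 transcripts higher and 2400 lower. Intervals of this kind cover counting error only and not differences between thalli. They take each count as a separate read, so reads counted more than once would make them too narrow, which was not tested.

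**Figure D1:**
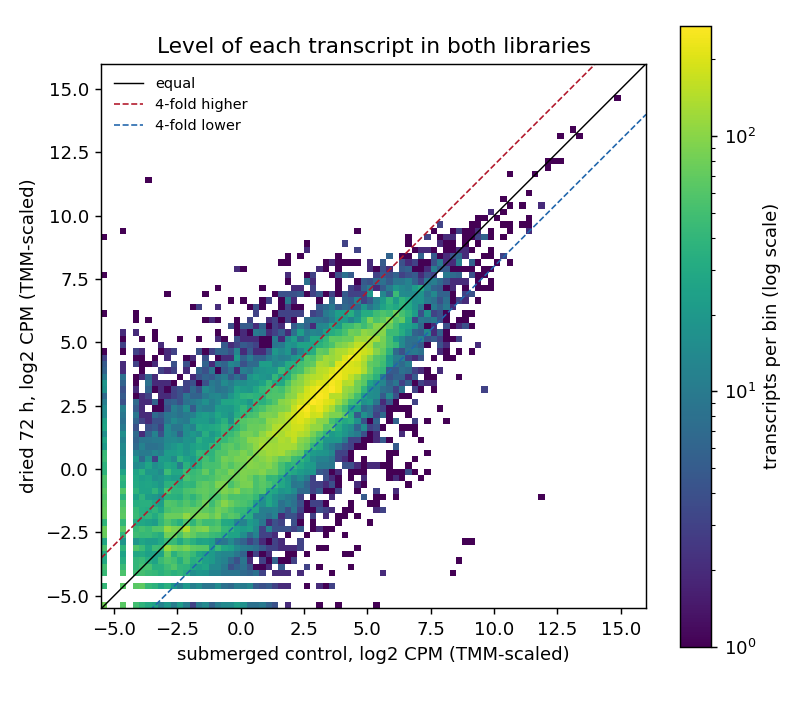
Level of each of the 64704 transcripts in the library dried for 72 h (vertical) and in the submerged control (horizontal), both as log2 CPM, with the number of transcripts per bin as colour on a log scale. The cloud follows the line of equality, and 8010 transcripts lie on or above the upper dashed line (4-fold higher) against 3988 on or below the lower one.

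Of single transcripts, c34631_g1_i1 (3953 nt, 62.2% GC) had the highest lower limit of the ratio among those compared. It had 175747 counts after 72 h of drying and 4 in the control, a ratio of 42884 (95% counting interval 16749 to 157395). In the other libraries it had 46 and 42 counts after 24 and 36 h of drying, and 20, 86343 and 84166 counts in thalli resubmerged after 24, 36 and 72 h. Its libraries thus fell into 3 with 84166 counts or more and 4 with 46 or fewer. This division does not follow the dry state, since thalli dried for 24 and 36 h stood with the control.

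On the lower side, c16710_g1_i1 (1549 nt, 53.8% GC) had 31 counts after 72 h of drying and 265914 in the control. The control was 8788-fold above the 72 h library (95% counting interval 6191 to 12935). It had 75 and 121 counts after 24 and 36 h of drying and 41, 407263 and 467766 counts in thalli resubmerged after 24, 36 and 72 h. All 3 dried libraries were low for it, and of the resubmerged libraries the one after 24 h was low and those after 36 and 72 h were above the control. Both transcripts are the only one of their assembled gene in the table.

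Chosen for the largest difference in scaled CPM outside these 2 genes, the other named transcripts were abundant in every library and differed little as ratios. Transcript c68860_g1_i1 (325 nt, 57.8% GC) had 640750 counts after 72 h and 449628 in the control, a ratio of 1.39 (95% counting interval 1.39 to 1.40). Its counts were 935607 and 961268 after 24 and 36 h of drying, and 828236, 648471 and 553548 after resubmergence from 24, 36 and 72 h. In scaled CPM it was 2536 higher after 72 h than in the control, and the thalli resubmerged after 72 h, at 5939 CPM, were the only library below the control, at 6486 CPM. Transcript c33257_g3_i2 (1333 nt, 54.1% GC) had 1886759 counts after 72 h and 2107334 in the control, a ratio of 0.874 (95% counting interval 0.872 to 0.876). It had 1992718 and 1910882 counts after 24 and 36 h of drying and 1578202, 1848126 and 1199697 after resubmergence from 24, 36 and 72 h, and its scaled CPM after 72 h of drying was second to the control. The other isoform of that assembled gene was at a log2 ratio of -0.0049.

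**Figure D2:**
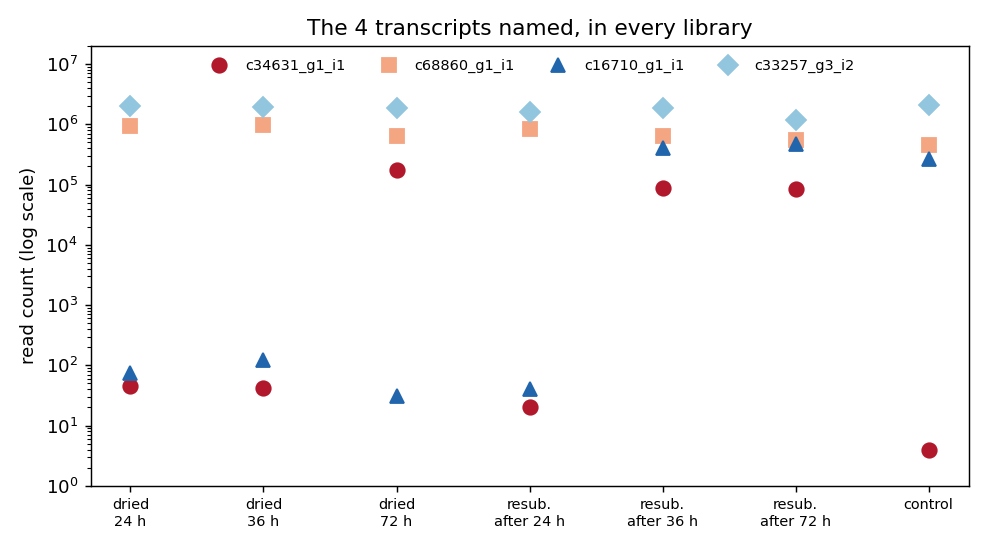
Read counts on a log scale of the 4 transcripts named, in the libraries dried for 24, 36 and 72 h, in those resubmerged after these periods and in the control. The markers of c34631_g1_i1 lie at 175747 after 72 h and at 4 in the control, those of c16710_g1_i1 at 31 and 265914, while those of c68860_g1_i1 lie between 449628 and 961268 and those of c33257_g3_i2 between 1199697 and 2107334.

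The authors had tested this pair of libraries themselves, with 1 library a side, so their p-values cannot measure the spread between thalli. Their table holds the same counts as the ratios used here, so its calls are not a separate check. With a threshold of 0.05 on its adjusted p, the authors' deposited table calls 267 of the compared transcripts higher after 72 h, in 115 assembled genes, and 73 lower, in 38 genes. These are 0.413% and 0.113% of the 64623 compared transcripts to which the table gives an adjusted p. All 267 and all 73 were at least 4-fold apart by the ratio used here, and they make up 3.33% of the 8010 and 1.83% of the 3988. The transcripts that the authors' deposited table calls higher had a median of 1143 counts after 72 h and 2 in the control, and those it calls lower had medians of 31 and 3289. Adjusted p-values in the authors' deposited table were 0.000705 for c34631_g1_i1 and 0.0149 for c16710_g1_i1, and 1 for each of the other transcripts named above.

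The share of transcripts far from the control was smaller in the highest of 5 equal classes of mean level than in the lowest, which is given as a count and was not tested. Of the 20% of transcripts with the lowest mean level, 19.7% were at least 4-fold higher after 72 h and 8.53% lower. Of the 20% with the highest mean level, 6.97% were higher and 3.70% lower. Among the 100 most abundant assembled genes by mean CPM over the 7 libraries, 1 transcript each, 8 were at least 4-fold higher and 11 at least 4-fold lower, where all assembled genes gave 15.7% and 8.1%, and 54 differed by under 2-fold. On the lower side these 100 were thus not below the share over all genes. These 100 took 11.99% of the counts after 72 h and 13.7% in the control. Low counts also scatter more, and 37.3% of the higher and 33.4% of the lower transcripts had under 100 counts in both libraries, against 29.0% of all compared.

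The shares also differed by length and by number of isoforms. Of transcripts under 500 nt, 15.5% were at least 4-fold higher and 9.82% at least 4-fold lower, of those of 500 to 1000 nt 17.6% and 8.35%, and of those of 4000 nt or more 5.95% and 3.20%. The higher share was thus largest in the second of the 5 length classes. Where the assembled gene had 1 transcript past the filter, 18.3% were higher and 9.93% lower, and where it had 10 or more, 7.90% and 4.61%. Longer transcripts were also the more abundant ones, with a median length of 752 nt in the lowest and 3706 nt in the highest of these level classes, so the 3 properties were not separated here.

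**Figure D3:**
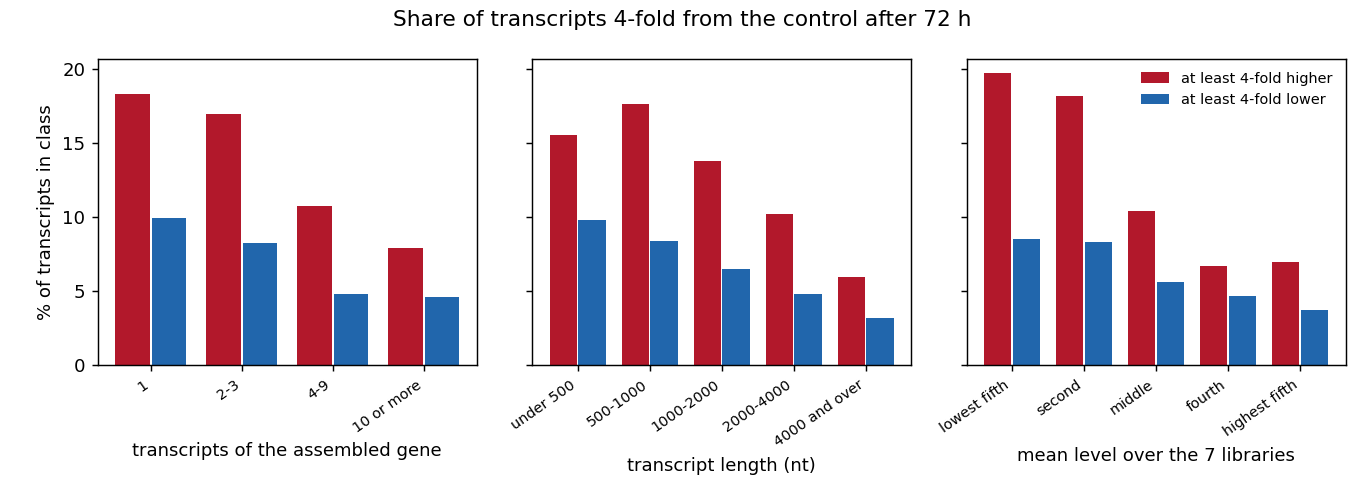
Percentage of transcripts at least 4-fold higher and at least 4-fold lower after 72 h of drying than in the control, by the number of transcripts of the assembled gene, by transcript length and by 5 equal classes of the mean level over the 7 libraries. The higher share is above the lower one in every class, and both are smaller in the last class of each panel than in the first.

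Isoforms of an assembled gene mostly had like ratios. Among the 10177 genes with at least 2 transcripts compared, the ratios of a gene's transcripts spanned a median of 0.30 on the log2 scale, and in 79.6% of the genes they spanned under 1. A transcript at least 4-fold higher was found in 1762 of these genes, and in 1032 of them every transcript was. At least 1 transcript was 4-fold lower in 937 genes, and every one in 457. Only 24 assembled genes held transcripts on both sides, with 3 to 19 transcripts each, and 3 did when the counting interval had to lie wholly past 4-fold. Any reads counted on more than 1 isoform would draw the ratios of isoforms together, so these counts may understate differences within genes. This was not tested.

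AT-rich transcripts were mostly lower in the thalli dried for 72 h. Of the 138 transcripts under 35% GC, in 119 assembled genes, 6 were at least 4-fold higher after 72 h and 52 at least 4-fold lower, or 4.35% and 37.7%, where all transcripts compared gave 12.4% and 6.16%. Their median log2 ratio was -1.47. The median level of these transcripts was 0.239 CPM after 72 h and 0.967 CPM in the control, and 9 of the 10 most abundant of them were below the control. With 1 transcript per assembled gene the 119 had a median log2 ratio of -1.49, with 44 lower and 5 higher.

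The level of these AT-rich transcripts differed between the drying periods. Their share of all counts was 3.63% after 24 h of drying, 1.51% after 36 h and 0.615% after 72 h, against 1.08% in the control. In the thalli resubmerged after 24, 36 and 72 h it was 0.635%, 0.639% and 0.616%. The dried thalli of 72 h were thus at the level of the 3 resubmerged libraries, while those dried for 24 and 36 h had a larger share than the control. Median log2 ratios to the control were 1.15, -0.16 and -1.47 after 24, 36 and 72 h, and these 3 comparisons share the 1 control library. Exact 95% counting intervals of the shares of counts in this text are at most 0.0084 points to either side.

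Transcripts of 35 to 45% GC had large shares on both sides at once. Of the 155 transcripts of 35 to 40% GC, 43 (27.7%) were at least 4-fold higher after 72 h and 38 (24.5%) at least 4-fold lower. With 1 transcript per assembled gene the order turned, with 23.3% of 120 higher and 26.7% lower. Of the 699 transcripts of 40 to 45% GC, 251 (35.9%) were at least 4-fold higher after 72 h and 145 (20.7%) at least 4-fold lower. The levels of these 699 were low, with a median of 0.253 CPM after 72 h and 0.101 CPM in the control, where 3 counts correspond to 0.0422 and 0.0433 CPM. The transcripts left out as found almost only in the 72 h library had a median GC of 43.9%, in the band of 40 to 45%. In 45 to 50% GC, 20.7% of 6259 transcripts were higher and 6.36% lower, or 30.3% and 9.38% with 1 transcript per assembled gene. In the bands from 50 to 70% GC the higher share was between 8.91% and 13.1% and the lower share between 5.44% and 6.44%. At 70% GC or more, 9.4% of 768 transcripts were higher and 11.3% lower, or 11.6% and 7.27% with 1 transcript per assembled gene.

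Across all transcripts compared, the ratio of the 72 h library to the control had little trend on GC content, with a slope of -0.078 on the log2 scale per 10 points of GC. The slopes at 24 and 36 h, against the same control, were -0.59 and -0.52. With the 1342 transcripts of the 72 h library kept, the slope at 72 h became -0.42, so its size depends on leaving them out. At 70% GC or more, the median log2 ratio to the control was -0.68 after 24 h, -0.96 after 36 h and -0.24 after 72 h.

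**Figure D4:**
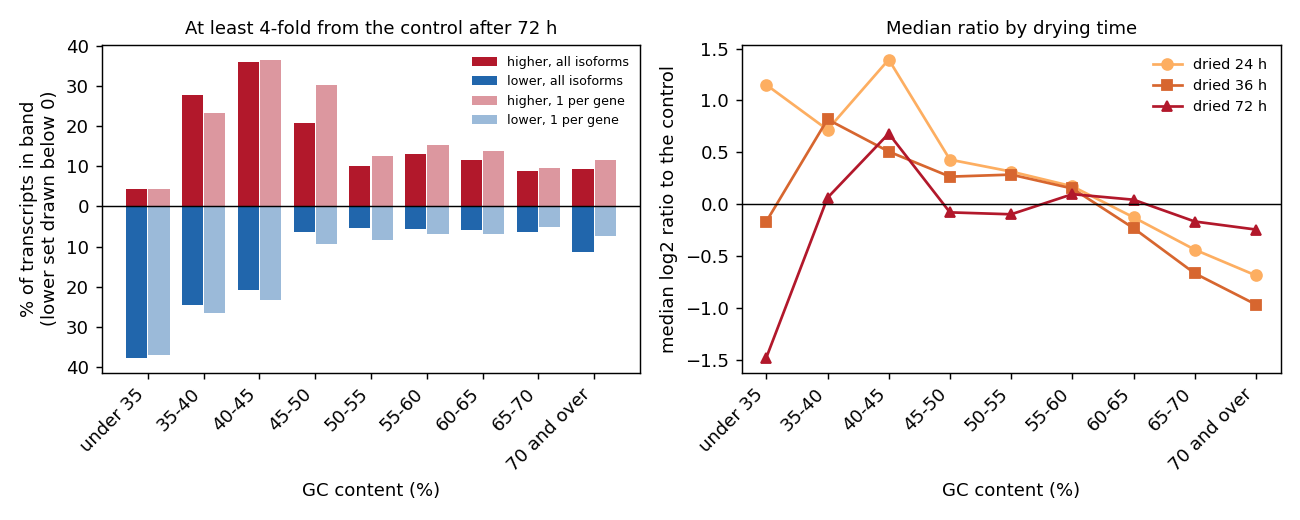
Left, percentage of transcripts at least 4-fold higher (above 0) and at least 4-fold lower (below 0) after 72 h than in the control, by band of GC content, for all isoforms and for 1 transcript per assembled gene. Right, the median log2 ratio to the control in the same bands after 24, 36 and 72 h of drying, which under 35% GC is 1.15, -0.16 and -1.47.

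The 2 sets picked at 72 h were then followed through the other libraries. The 8010 higher transcripts had a median of 2.76 CPM after 72 h and 0.188 CPM in the control, and the 5 other libraries lay between, at 0.803 and 0.834 CPM after 24 and 36 h of drying and 0.681, 0.882 and 0.869 CPM after resubmergence from 24, 36 and 72 h. They took 11.96% of the counts after 72 h and 1.27% in the control, or 3.79% and 0.352% with 1 transcript per assembled gene. The 3988 lower transcripts had a median of 0.479 CPM after 72 h and 3.78 CPM in the control. In the other libraries their medians were 0.803 and 0.846 CPM after 24 and 36 h of drying and 0.920, 2.18 and 1.31 CPM after resubmergence. They took 1.55% of the counts after 72 h and 10.7% in the control.

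Both ends of a ratio can make it large, and in scaled CPM the control was at its end of the 7 libraries for most of these transcripts. Both libraries chose the sets, so a place at either end is partly built in, and the shares over all compared were not computed. In 5062 of the 8010 higher transcripts (63.2%) the control was the lowest library or tied with it, and in 3728 (46.5%) the 72 h library was the highest or tied. Both held for 1717 transcripts. The 1342 transcripts left out had the 72 h library highest by their rule, and with them kept 9352 were at least 4-fold higher. Leaving them out thus lowers the share of the higher set in which the 72 h library is highest. For the 3988 lower transcripts, the control was highest or tied in 2478 (62.1%), the 72 h library lowest or tied in 2003 (50.2%), and both held for 1085. By library totals alone, the 72 h library was highest or tied in 4219 transcripts of the higher set (52.7%). It was lowest or tied in 1675 of the lower set (42.0%), so both shares of the 72 h library depend on the scaling. The shares of the control were not computed by library totals. With 1 control library, a particularity of those thalli and an effect of drying cannot be told apart.

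**Figure D5:**
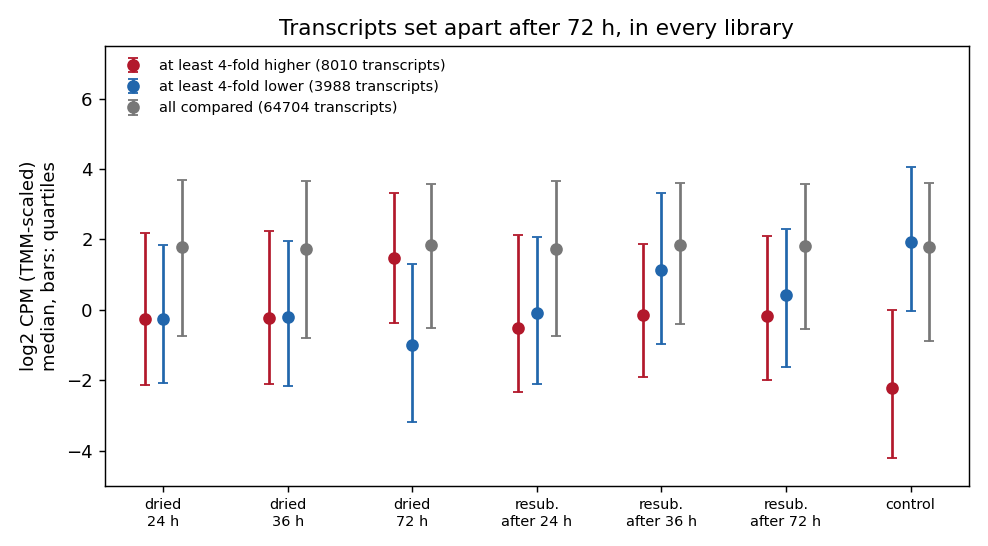
Median log2 CPM, with bars from the lower to the upper quartile, of the 8010 transcripts at least 4-fold higher after 72 h of drying than in the control, of the 3988 at least 4-fold lower and of all 64704 compared, in each of the 7 libraries. The higher set lies highest after 72 h and lowest in the control, where its selection puts it, and the other 5 libraries lie between.

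The libraries of the 24 and 36 h periods give another ratio, that of dried to resubmerged thalli of the same period. It is not part of the 72 h ratio. These libraries did enter the mean count filter, the scaling and the rule for leaving transcripts out, so the measure is not independent of the sets. At 36 h, the transcripts lower after 72 h had a median log2 ratio of dried to resubmerged thalli of -1.10, where all transcripts compared had -0.014. At least 4-fold lower in dried than in resubmerged thalli at 36 h were 1201 of the 3988 (30.1%), against 13.0% of all compared. In scaled CPM the set's median after 36 h of drying, 0.846, was close to that of the thalli resubmerged after 24 h, 0.920, and the thalli resubmerged after 36 h stood above the other 5 libraries beside the control, at 2.18. The ratio at 36 h thus rests on 1 resubmerged library with a high level. At 24 h the set had a median of -0.065 against 0.048 for all compared and 8.55% at least 4-fold lower against 5.59%. With 1 transcript per assembled gene the share at least 4-fold lower at 24 h was 9.63%, against 9.82% of all, so no excess remained. At 36 h it was 29.1% against 17.8%.

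In the same libraries, the transcripts higher after 72 h had medians close to those of all compared and a larger share at least 4-fold higher in dried thalli. Their median log2 ratio of dried to resubmerged thalli was 0.025 at 24 h and 0.090 at 36 h, against 0.048 and -0.014 for all compared. At 36 h, 16.2% of them were at least 4-fold higher in dried thalli and 14.9% at least 4-fold lower, where all compared gave 7.13% and 13.0%. At 24 h the shares were 7.59% and 5.48%, where all compared gave 3.35% and 5.59%. With the 1342 transcripts left out put back, the median of the higher set was 0.0 at 24 h and at 36 h. With 1 transcript per assembled gene the set higher after 72 h had medians of 0.10 at 24 h and 0.0 at 36 h, against -0.070 and -0.26 for all 21534, and 11.4% and 17.1% of it were at least 4-fold higher in dried thalli, against 5.13% and 7.58%. At least 4-fold lower were 5.84% and 17.2% of it, against 9.82% and 17.8%. The set lower after 72 h had medians of 0.024 at 24 h and -1.08 at 36 h.

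Within the 72 h period itself, the set higher in dry thalli had a median log2 ratio of 1.24 to the thalli resubmerged for 1 h, and the set lower in dry thalli one of -1.08. Both use the library that selected the sets, so a return towards the middle is built in. Of the higher set, 35.1% were at least 4-fold higher in dried than in resubmerged thalli of 72 h, and of the lower set 21.1% were at least 4-fold lower, where all compared gave 5.59% and 4.19%.

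Some transcripts were present in 1 of the 2 libraries and without a count in the other. At least 50 counts after 72 h and 0 in the control were found for 440 transcripts in 269 assembled genes, with a median of 125 counts after 72 h, which is 40.7-fold above a floor of 3 counts in the control. Of the 440, 281 and 264 had at least 50 counts after 24 and 36 h of drying, 214, 220 and 55 after resubmergence from 24, 36 and 72 h, and 180 had no count in the thalli resubmerged after 72 h. Beside the control, where the choice puts them at 0, the thalli resubmerged after 72 h thus had the fewest of them at 50 raw counts or more. The opposite, 0 counts after 72 h and at least 50 in the control, was found for 93 transcripts in 82 genes, with a median of 76 counts in the control. Of these 93, 5 and 3 reached 50 counts after 24 and 36 h of drying and 4, 14 and 14 after resubmergence. Few of them thus reached that count outside the control. For the 440 and the 93 alike, these counts are not scaled to depth. The share of all compared transcripts that reached 50 counts in each library was not computed. The 440 and the 93 are not counterparts, since transcripts found almost only in the 72 h library were left out. Of those left out, 541 had no count in any other library. No such rule was applied to the control, whose counts alone could carry a transcript past the mean count filter.

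The threshold that left transcripts out runs through a continuous range. The 62 transcripts left out at 20 to 25 times every other library had a median of 1367 counts after 72 h and a median log2 ratio to the control of 6.88. The 63 kept at 16 to 20 times had 791 counts and 4.98. Median GC was 51.8% in these 62 and 52.8% in these 63, where all 1342 left out had 43.9%. Among the 8010 higher transcripts, 317 were still at least 10 times above every other library after 72 h and 858 at least 5 times. All 317 and 844 of the 858 had at least 50 counts after 72 h, and leaving those out too gave 7693 and 7166 transcripts at least 4-fold higher, the second limit being chosen after the data were seen.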

How the data were processed

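The authors' expression table holds, per the file headers, a whole-number read count and an FPKM value per transcript and library, with length and GC content in percent. Cutadapt, Bowtie2 and DESeq are listed, without roles or versions, in the submitters' processing notes. Which assembler and counter made the table is not stated there. The authors' table of this comparison holds, per the file headers, the fold (ratio of 72 h to control), raw and adjusted p-value, and a signal per library, which equals the count (size factor 1). Both tables have the same counts for all 137594 transcripts.

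Groups follow the treatment labels. Counts were scaled by trimmed means (TMM) over the 7 libraries in edgeR 4.0.16 under R 4.3.3, and log2 CPM used a prior count of 2. DESeq2 1.42.0 gave alternative size factors. Counting intervals are exact (Clopper-Pearson, 95%), and a count of 0 was set at 3 counts for a ratio. Intervals and floors cover counting error only, and the intervals take each count as a separate read. With 1 library a side no model was fitted and no p-value computed. The calculation of ratios and intervals was checked on simulated counts with counting error alone, as the intervals assume. That check cannot show whether the intervals hold for these data.

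At most 2 transcripts were named on each side: that with the largest lower limit of the ratio, and that with the largest CPM difference in another assembled gene. The members, sets and classes were chosen with earlier results of these data known.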

Additional observations from a re-analysis of the deposited data

Results flagged for a closer look

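Transcripts outside the comparison carried signal in the 72 h library. The 1342 transcripts left out, in 810 assembled genes with a median GC of 43.9%, took 1.42% of the counts after 72 h of drying, against 0.00682% in the control and 0.00705% to 0.0249% in the other 5 libraries. Of them, 541 had no count in any other library.

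Of the 71548 transcripts under the mean count filter, with a median length of 284.5 nt, 71.5% had at least 1 count after 72 h, against 40.9% in the control at nearly the same depth and 52.8% to 57.2% in the other libraries, which were deeper. Their counts summed to 309580 after 72 h and 96092 in the control, a ratio of 3.22. Some transcripts under the filter also meet the rule for leaving out, which 1710 transcripts of the whole table and 1342 past the filter meet. What these transcripts are was not tested.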

How the results depend on the processing

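The 8010 transcripts higher and 3988 lower stayed within 1.5 times these counts under 10 and 11 of 14 alternatives. Without a filter on the mean count 20972 were higher, and at a mean of at least 50, 5187. With 1 transcript per assembled gene 3389 were higher and 1744 lower, as fewer were compared. With the counting interval wholly past 4-fold 2400 were lower, and with at least 100 counts in 1 of both libraries, chosen after seeing the data, 5025 were higher and 2656 lower. The 24 genes with isoforms on both sides became 14 at a mean of at least 50 and 3 with the counting interval, and 1 transcript per gene gives no such value. With scaling by total counts the median log2 ratio over everything compared was 0.011, with 8276 higher and 3868 lower. The same scaling moved the median of dried over resubmerged thalli of everything compared to -0.091 at 24 h and -0.18 at 36 h. In the higher set, then 8276 transcripts, it was -0.091 and -0.033, so relative to everything compared it differed by -0.00032 and 0.14, against -0.023 and 0.10 with TMM. Choosing 1 transcript per gene turned that of the lower set at 24 h to 0.024; the cause was not tested. No paired analysis was possible because each condition has 1 library. Depth limits transcripts of few counts, and no setting stands in for replicate thalli.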
